A study of Mus musculus with 12 samples.

Results

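A set of 10 genes of neuropeptide signalling was followed in lungs of mouse fetuses, taken whole at E15.5 (embryonic day 15.5). They are Pdyn and Oprk1 of the opioid system, Tac1 and Tacr1 of the tachykinin system, Calcrl with its partners Ramp1, Ramp2 and Ramp3, and the peptide genes Vip and Npy. All 10 were found by symbol among the 47069 genes of the count table. The list was chosen by names with the measured CPM difference between CKO and WT lungs in view, so the values of the 10 genes are given as a description, with no p-value. Where the fit across all genes called one of them, this is stated as the outcome for the gene and not as evidence of a difference. The lungs were from strain C57BL/6, 3 wild type (WT) and 3 conditional knockout (CKO). The CKO genotype is given as Tgfbr2lox/flox/Tbx4-rtTA/Teto-Cre for replicates 1 and 2 and as Tgfbr2flox/flox/Tbx4-rtTA/Teto-Cre for replicate 3. In these mice a Tbx4-driven, doxycycline-dependent Cre acts on the floxed gene of the type II TGF-beta receptor in lung mesenchyme. Doxycycline, at 1 mg/ml in drinking water and in food, was given from E6.5 and is listed for all lungs, WT included. Whether the WT lungs carried a floxed allele or either transgene, and whether lungs shared a litter, is not given in the labels, so that the spread behind the p-values is that of these 6 lungs and may be partly technical.

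Neuropeptides are cut out of larger precursor proteins by proteases in secretory vesicles and act on G protein-coupled receptors. Dynorphins, cut from the Pdyn precursor, act on the kappa opioid receptor encoded by Oprk1, and substance P, cut from the Tac1 precursor, acts on the neurokinin receptor encoded by Tacr1. The receptor encoded by Calcrl reaches the cell surface with a receptor activity-modifying protein: with RAMP1 it is a receptor for calcitonin gene-related peptide (CGRP), and with RAMP2 or RAMP3 for adrenomedullin. In the lung, vasoactive intestinal peptide (Vip) and substance P are known as peptides of airway nerves, CGRP as a peptide of neuroendocrine cells and sensory nerves, and neuropeptide Y (Npy) as a peptide of sympathetic nerves. Adrenomedullin signalling through Calcrl and Ramp2 is needed in mice for blood and lymphatic vessels.

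Gene counts summed to 31983717 to 51572845 per lung, and values are CPM, read counts scaled to a common effective library size, with means ± SD over n = 3 lungs per group. A count of 3 in 1 lung corresponds to 0.0582 to 0.0938 CPM, which was taken as the floor for a single library and covers counting error only. The epithelial markers Nkx2-1 (260 to 333 CPM) and Sftpc (414 to 1236 CPM) were counted in all 6 lungs, which bears on the tissue label. The targeted gene Tgfbr2 was at 199.7, 203 and 230.0 CPM in WT lungs and at 213, 221 and 239 CPM in CKO lungs (log2 fold change 0.09 ± 0.07 SE, adjusted p = 0.453 by edgeR's quasi-likelihood test). This count covers the whole gene in all cells of the lung and checks nothing about the deletion. Replicate 1 of both groups was female: Xist had 61807 counts in the WT and 100817 in the CKO one, the remaining lungs having 22 to 41, and 4 Y chromosome genes summed to 1 and 2 counts there and to 10429 to 13984 elsewhere. CKO replicate 1 also had the largest share of reads outside annotated features, 17.0% against 11.8% and 12.8% in the other CKO lungs and 14.5% to 16.1% in WT.

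Of the 10 genes 6 had enough counts to enter the fit across 17843 genes, and Vip, Oprk1, Tac1 and Npy did not. Pdyn, Calcrl and Ramp2 were called higher in the CKO lungs, Tacr1 was called lower, and Ramp1 and Ramp3 were not called (edgeR's quasi-likelihood test, adjusted p under 0.05). In the same fit 8.71% of all tested genes were called, 5.64% higher and 3.08% lower. For 5 of the 6, all but Ramp3, the WT and CKO values did not overlap, beside 29.9% of tested genes. Since the comparison was known when the list was made, nothing is read from these shares. The median log2 fold change of the 6 was -0.06, beside -0.00461 for all tested genes.

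**Figure D1:**
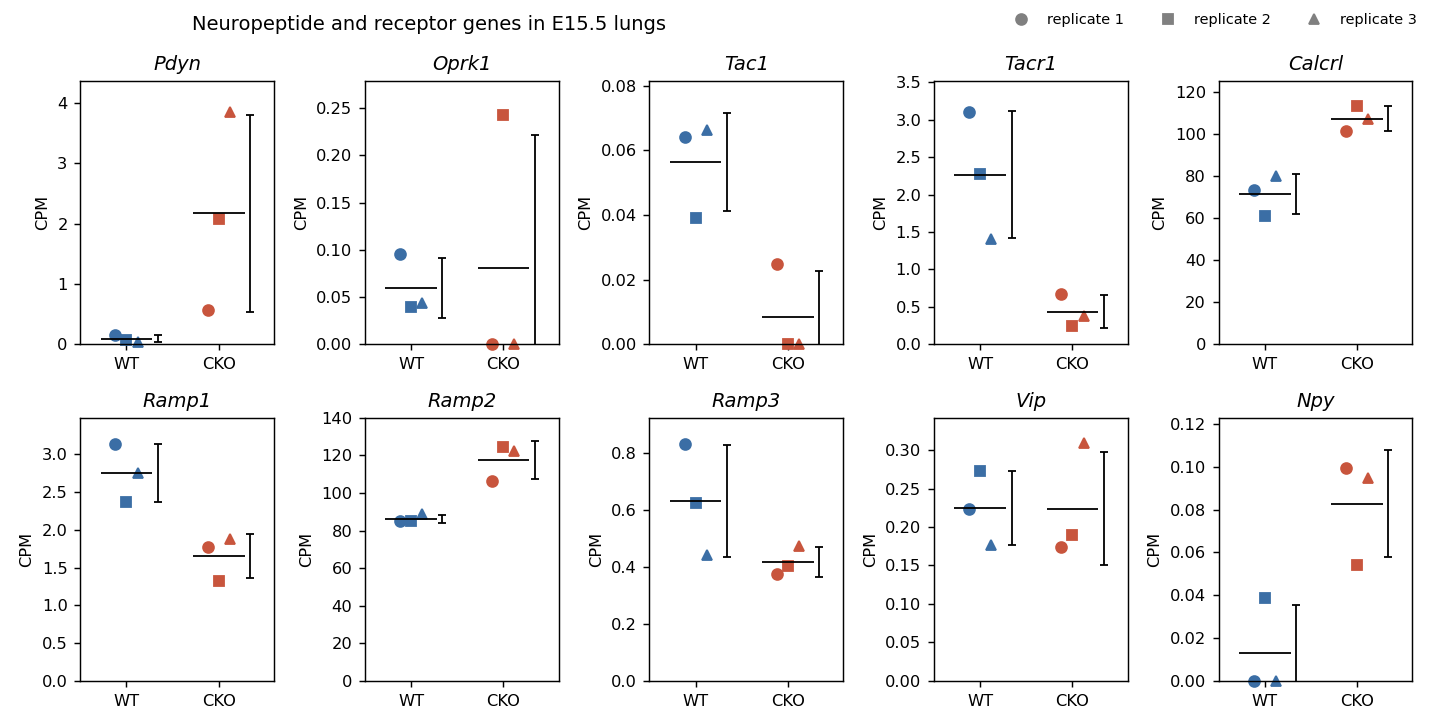
CPM of the 10 genes in each lung (vertical axis from 0, a scale of its own in each panel) for WT and CKO; circles, squares and triangles are replicates 1, 2 and 3, horizontal lines are group means and the bars beside them ± 1 SD (n = 3), ending at 0 where they would go below it. Pdyn, Calcrl and Ramp2 lay higher and Tacr1 and Ramp1 lower in all 3 CKO lungs than in any WT lung, whereas Oprk1, Ramp3 and Vip overlapped between groups.

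Pdyn encodes the precursor of the dynorphins and lies on chromosome 2 (ENSMUSG00000027400, 129686565 to 129699844, minus strand, GRCm38, GENCODE M21). Pdyn was close to the floor in WT lungs, with 5, 4 and 2 counts, and had 23, 77 and 162 counts in CKO lungs. Scaled to depth, the WT lungs had 0.160, 0.0779 and 0.0441 CPM in the order of their numbers, and the CKO lungs 0.573, 2.08 and 3.85 CPM. All CKO lungs lay above all WT lungs, and the CKO lungs differed among themselves by more than the WT lungs did. The group values were 0.0940 ± 0.0596 CPM in WT and 2.17 ± 1.64 CPM in CKO, a log2 fold change of 4.59 ± 0.81 SE. The ratio of summed counts scaled to library size, 262 against 11, was 25.5, with an exact 95% interval of 14.0 to 51.8 that covers counting error only. The difference of CKO replicate 1 from the WT mean was 16.7% of that of the other CKO lungs. Within the female lungs Pdyn was 0.160 CPM in WT and 0.573 CPM in CKO, and between the lungs of replicates 2 and 3 alone the log2 fold change was 5.52. Pdyn was no longer called without WT replicate 1 (log2 fold change 5.07), WT replicate 2 (4.49) or CKO replicate 2 (4.62), nor with limma-voom (4.19). Pax7, a transcription factor of muscle precursors, was likewise lowest of the CKO lungs in replicate 1, with 0.473, 6.21 and 6.25 CPM against 0 to 0.0662 CPM in WT. The 9 skeletal muscle markers summed to 7.63 to 12.2 CPM in WT and 14.6 to 18.7 CPM in CKO lungs. The 6 tested had a median log2 fold change of -0.06, of which 4 did not pass and 2 rose (Pax7 and Myh8). Without WT replicate 1 or 2 or CKO replicate 2 or 3 this count was 0, and the part of these markers in the Pdyn values was not tested.

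Oprk1, the receptor gene for dynorphins (ENSMUSG00000025905, chromosome 1, 5588466 to 5606131), was above the floor in 1 lung. It had 3, 2 and 2 counts in WT and 0, 9 and 0 in CKO lungs, or 0.0960, 0.0389 and 0.0441 CPM against 0, 0.243 and 0 CPM. All 9 CKO counts came from replicate 2, and a difference was not detectable at this depth.

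Among the 6 other opioid genes listed, 4 were tested, 1 rose and 3 did not pass. Penk, the precursor of the enkephalins, rose from 6.496, 4.34 and 5.56 CPM in WT lungs to 11.7, 20.1 and 22.2 CPM with the knockout (log2 fold change 1.73 ± 0.25 SE, edgeR adjusted p = 0.00936). As with Pdyn, CKO replicate 1 was the lowest of its group and still above every WT lung. Without WT replicate 2 the adjusted p of Penk was 0.0552. A noncoding gene on the opposite strand, A830012C17Rik, overlaps Penk over 233 exon bases but had 37 counts in all against 2825. Oprl1, the nociceptin receptor gene, had 1.12 ± 0.397 CPM in WT lungs and 2.15 ± 0.723 CPM in CKO lungs, groups that did not overlap (adjusted p = 0.132). Pomc and Pnoc, precursors of beta-endorphin and nociceptin, had log2 fold changes of 0.12 ± 0.21 and -0.02 ± 0.21 (edgeR adjusted p = 0.786 and 0.972). The mu receptor gene Oprm1 had a single count in each of 2 lungs, and the delta receptor gene Oprd1 had 2 to 16 counts per lung; neither was tested.

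Tac1 encodes the precursor of substance P and neurokinin A (ENSMUSG00000061762, chromosome 6, 7554879 to 7565834, plus strand). Coding bases 184 to 333 of its 390-base coding sequence are shown because they hold both peptide ends that tachykinin receptors read, at residues 64 and 103; capitals mark them.
Tac1 coding: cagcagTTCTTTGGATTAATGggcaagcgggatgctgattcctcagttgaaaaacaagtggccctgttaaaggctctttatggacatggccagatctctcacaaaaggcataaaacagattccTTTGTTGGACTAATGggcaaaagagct

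Transcripts of this precursor were barely counted. Tac1 had 2, 2 and 3 counts in WT and 1, 0 and 0 in CKO lungs, at or under the floor in every lung, so no fold is given.

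Tacr1, the gene of the substance P receptor (ENSMUSG00000030043, chromosome 6, 82402334 to 82560104, plus strand), was lower in the CKO lungs. It had 97, 117 and 64 counts in WT and 27, 9 and 16 in CKO lungs, which is 3.10, 2.28 and 1.41 CPM against 0.672, 0.243 and 0.380 CPM. The groups did not overlap, although the WT lungs spread widely. The group values were 2.26 ± 0.847 and 0.432 ± 0.219 CPM, a log2 fold change of -2.36 ± 0.41 SE and 5.15-fold lower. For Tacr1 the difference in CKO replicate 1 was 81.5% of that of the other CKO lungs, and between replicates 2 and 3 alone the log2 fold change was -2.55. Leaving out WT replicate 1 (-2.08) or 2 (-2.36), or CKO replicate 2 (-2.09) or 3 (-2.27), each ended the call. In a bulk lung, fewer cells of a type and less RNA per cell cannot be told apart. Of 8 smooth muscle markers 3 fell (Acta2, Myh11 and Mylk), and the 8 summed to 1682 to 1798 CPM in WT and 888 to 1273 CPM in CKO lungs. This count was 0 without WT replicate 2 or CKO replicate 2, 1 without WT replicate 1 or CKO replicate 3, and 2 without WT replicate 3. It was 7 both without CKO replicate 1 and with limma-voom. The part of these markers in the Tacr1 values was not tested.

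Another tachykinin receptor gene was called in the opposite direction. Tacr3, the neurokinin B receptor gene, had 0.128, 0 and 0 CPM in WT lungs and 1.07, 1.46 and 1.33 CPM in CKO lungs. Its counts were 4 in all WT lungs and 153 in all CKO lungs, a scaled ratio of 41.0 with an exact 95% counting interval of 15.7 to 152. The log2 fold change was 5.19 ± 0.73 SE (edgeR adjusted p = 0.00868), and it passed with any 1 lung left out, the highest adjusted p being 0.0471. Tacr2, the neurokinin A receptor gene, had 1.47 ± 0.262 and 1.78 ± 0.0748 CPM and did not pass (adjusted p = 0.439 by edgeR). Of the 4 other tachykinin genes listed only these 2 were tested; Tac2 and Tac4, which encode tachykinin precursors, had 0 to 6 counts per lung.

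**Figure D2:**
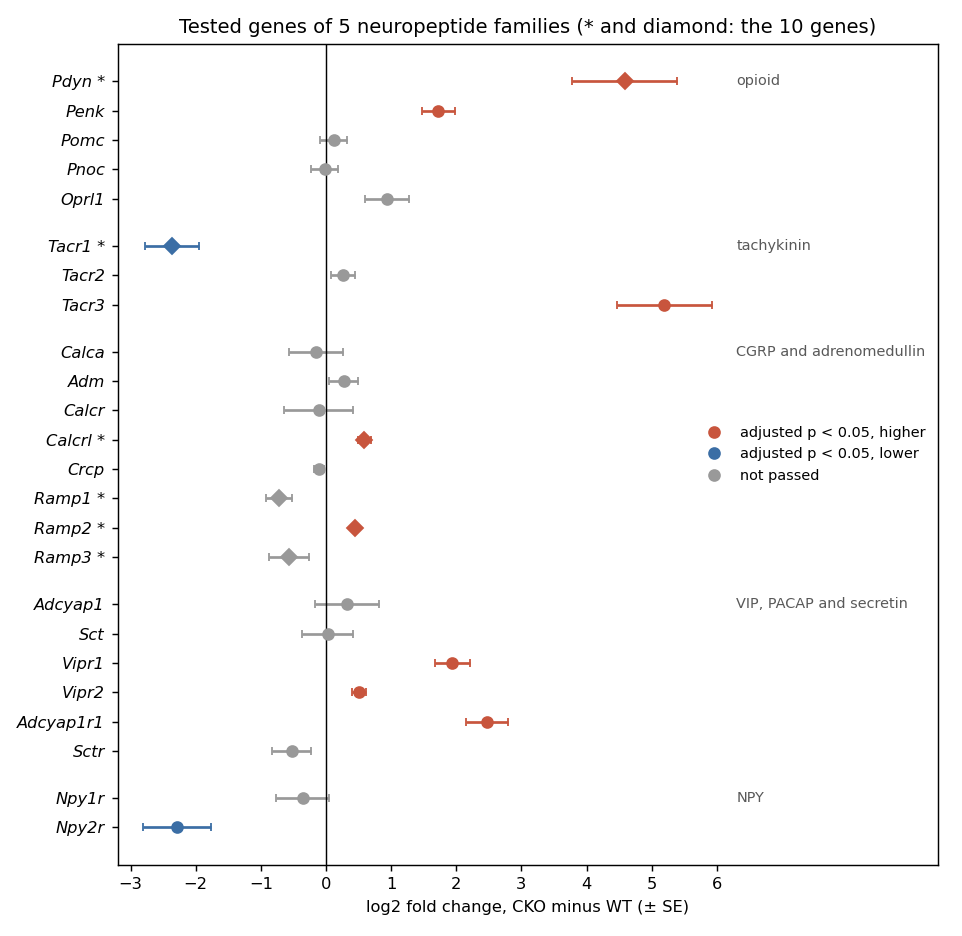
Log2 fold change, CKO minus WT, with bars of ± 1 SE, for the tested genes of 5 neuropeptide families; diamonds and asterisks mark the 10 genes described, and colours mark calls at an adjusted p under 0.05 in edgeR's quasi-likelihood test. Tacr1 (-2.36) and Tacr3 (5.19) lie on opposite sides of 0, Calcrl and Ramp2 on the side opposite to Ramp1 and Ramp3, and the 3 called VIP and PACAP receptor genes on the higher side.

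Calcrl encodes the calcitonin receptor-like receptor (ENSMUSG00000059588, chromosome 2, 84330626 to 84425411, minus strand). Its values were 73.2, 61.1 and 79.9 CPM in WT lungs and 102, 113 and 107 CPM in CKO lungs. Every CKO lung was above every WT lung, with 71.4 ± 9.49 and 107 ± 5.87 CPM and a log2 fold change of 0.59 ± 0.09 SE. It was not called without WT replicate 1 (0.61) or CKO replicate 2 (0.56).

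Ramp2, the partner that makes this receptor an adrenomedullin receptor (ENSMUSG00000001240, chromosome 11, 101246028 to 101259546, plus strand), had 85.3, 84.9 and 88.7 CPM in WT lungs and 106, 124 and 122 CPM in CKO lungs. The WT lungs lay close together and below all CKO lungs, at 86.3 ± 2.11 against 118 ± 9.96 CPM, a log2 fold change of 0.45 ± 0.06 SE. The call was lost without WT replicate 2 (0.43). Ramp2 shares 1103 exon bases with Vps25 on the same strand, so reads there may have been counted for neither gene; Vps25 had 191 counts in all against 25064 for Ramp2. CKO replicate 1 showed 77.7% of the difference of the other CKO lungs for Calcrl and 53.7% for Ramp2. Between replicates 2 and 3 alone the log2 fold changes were 0.65 and 0.51.

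Ramp1, the partner for CGRP (ENSMUSG00000034353, chromosome 1, 91179822 to 91225196), lay on the other side. It had 98, 122 and 125 counts in WT and 71, 49 and 79 in CKO lungs, or 3.14, 2.38 and 2.76 CPM against 1.77, 1.32 and 1.88 CPM. The groups did not overlap, at 2.76 ± 0.381 and 1.66 ± 0.293 CPM, and the log2 fold change was -0.73 ± 0.20 SE. It did not pass in edgeR's quasi-likelihood test with all lungs or with any 1 left out, and was called lower by DESeq2 and in the authors' deposited table, which gives a log2 fold change of -0.73.

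Ramp3, the other adrenomedullin partner (ENSMUSG00000041046, chromosome 11, 6658521 to 6677475), had 26, 32 and 20 counts in WT and 15, 15 and 20 in CKO lungs. Its CPM were 0.832, 0.623 and 0.441 against 0.374, 0.405 and 0.475, so that WT replicate 3 fell among the CKO lungs. The log2 fold change was -0.57 ± 0.31 SE and was not called.

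Compared per kilobase of merged exon, the 3 partners were far apart in level. In WT lungs Ramp2 had 26.1 ± 0.641 CPM per kilobase, Ramp1 0.912 ± 0.126 and Ramp3 0.458 ± 0.142. If the exon bases shared with Vps25 are left out of the length, the Ramp2 level in WT was 39.3 ± 0.962 CPM per kilobase. Of the 3 levels together, Ramp2 made up 94.0%, 95.4% and 95.6% in WT and 97.4%, 98.1% and 97.5% in CKO lungs. Ramp1 made up 3.78%, 2.92% and 3.24% in WT and 1.77%, 1.14% and 1.63% in CKO lungs. Within a lung, the level of Ramp2 was 1.72, 2.05 and 1.64 times that of Calcrl in WT and 1.55, 1.62 and 1.69 times in CKO lungs, ranges that overlap.

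Of the ligand genes of this receptor Adm and Calca were tested, and neither passed. Adm, which encodes adrenomedullin, had 0.995 ± 0.0725 and 1.20 ± 0.255 CPM (log2 fold change 0.27 ± 0.22 SE, edgeR adjusted p = 0.495). Calcb, which encodes another form of CGRP, was under the filter with 3, 11 and 2 counts in WT lungs and 1, 0 and 1 in CKO lungs, and so was Adm2 with 3 to 9 per lung. Calca, which encodes CGRP and calcitonin, had 7 to 20 counts per lung, with 0.332 ± 0.109 and 0.308 ± 0.138 CPM (edgeR adjusted p = 0.866). Calcr, the calcitonin receptor gene, had an adjusted p of 0.927, and Crcp, which encodes a further component of the CGRP receptor, had 30.3 ± 1.88 and 28.1 ± 2.23 CPM and an adjusted p of 0.456. Of the 7 other genes listed for this family 4 were tested and 0 were called by edgeR, DESeq2 or limma-voom, and 0 had an unadjusted p under 0.05.

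Calcrl and Ramp2 are known from endothelium, and endothelial markers were higher in the CKO lungs too. Of 10 markers 8 rose (Cldn5, Egfl7, Emcn, Esam, Kdr, Pecam1, Sox17 and Tek), with a median log2 fold change of 0.36, and Cdh5 and Tie1 did not pass. The 10 summed to 1584, 1588 and 1709 CPM in WT lungs and 1920, 2147 and 2136 CPM in CKO lungs. The count of 8 depended on single lungs, with 2 called without WT replicate 2, 4 without WT replicate 1, and also 4 without either CKO replicate 2 or 3, and 10 without CKO replicate 1. Per 100 CPM of these markers, Calcrl had 4.62, 3.85 and 4.67 CPM in WT lungs and 5.29, 5.28 and 5.02 CPM in CKO lungs. Ramp2 had 5.38, 5.35 and 5.19 CPM in WT lungs and 5.53, 5.79 and 5.72 CPM in CKO lungs by the same measure. In both genes the CKO lungs lay above the WT lungs after this scaling, by less than before it. The markers differed among themselves: Emcn had a log2 fold change of 0.70 and Cdh5 of 0.22, beside 0.59 for Calcrl and 0.45 for Ramp2. The scaled values therefore depend on which markers weigh most in the sum. Of the lymphatic markers Lyve1 rose and Prox1 fell (edgeR adjusted p = 0.0195 and 0.0115), and Ccl21a was at 0 in all lungs. Lyve1 did not pass without WT replicate 2 or CKO replicate 2 (up to 0.0839), nor Prox1 without WT replicate 1 or CKO replicate 2 (up to 0.0620). The part of the endothelial share in the Calcrl and Ramp2 values was not tested further.

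**Figure D3:**
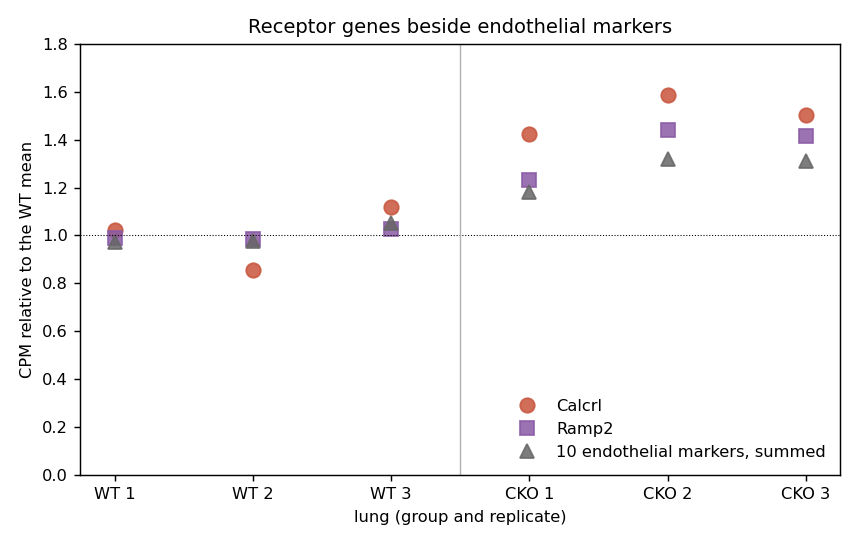
CPM of Calcrl, Ramp2 and the sum of 10 endothelial markers in each lung, each divided by its own WT mean (vertical axis from 0, no unit; each point is 1 lung). The CKO lungs reached 1.42 to 1.59 for Calcrl, 1.23 to 1.44 for Ramp2 and 1.18 to 1.32 for the summed markers.

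Vip encodes vasoactive intestinal peptide (ENSMUSG00000019772, chromosome 10, 5639218 to 5647617), which relaxes airway and vascular smooth muscle. It had 7, 14 and 8 counts in WT and 7, 7 and 13 in CKO lungs, or 0.224, 0.273 and 0.176 CPM against 0.174, 0.189 and 0.309 CPM. The groups overlapped, and the scaled ratio of summed counts, 27 against 29, was 0.999 with an exact 95% counting interval of 0.569 to 1.75.

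Receptor genes of this family were called. Of the 8 other genes listed for VIP, PACAP and secretin, 6 were tested, 3 rose, 0 fell and 3 did not pass. Adcyap1r1, the receptor gene for the related peptide PACAP, had 0.544, 0.506 and 0.309 CPM in WT lungs and 1.67, 2.59 and 3.21 CPM in CKO lungs (log2 fold change 2.46 ± 0.32 SE, edgeR adjusted p = 0.00643). Vipr1, which encodes the first VIP receptor, had 0.800, 0.759 and 1.10 CPM in WT lungs and 2.32, 3.78 and 4.18 CPM in CKO lungs (log2 fold change 1.94 ± 0.27 SE, edgeR adjusted p = 0.00868). Vipr2, which encodes the other one, was the most abundant of the 3 in CPM, with 11.6 ± 1.14 in WT and 16.4 ± 1.32 in CKO lungs, and rose by a log2 fold change of 0.51 ± 0.10 SE (edgeR adjusted p = 0.0258). For all 3 the groups did not overlap. With any 1 lung left out Adcyap1r1 still passed, at an adjusted p of up to 0.0397. Vipr1 did not pass without WT replicate 2 (0.0552) or with the first run alone (0.0510), and Vipr2 did not without WT replicate 1 or 2 or CKO replicate 2 or 3 (highest adjusted p 0.0905). The secretin receptor gene Sctr had 0.459 ± 0.0978 and 0.317 ± 0.0336 CPM and did not pass (edgeR adjusted p = 0.313).

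Npy encodes neuropeptide Y (ENSMUSG00000029819, chromosome 6, 49822710 to 49829507). It had 0, 2 and 0 counts in WT and 4, 2 and 4 in CKO lungs, values about the floor of a single lung. Summed, 10 counts against 2 gave a scaled ratio of 5.36 with an exact 95% interval of 1.14 to 50.3. This interval covers counting error only and not the spread between lungs, so no difference is read from it. The CPM were 0, 0.0389 and 0 against 0.0996, 0.0540 and 0.0950. Replicate 2 had 2 counts in both groups, so the CPM stood apart only through scaling to depth. Npy was below the filter of the fit. Of the 7 other genes of the NPY family, 2 were tested. Npy2r, a receptor gene of this family, had 0.800, 0.448 and 1.61 CPM in WT lungs and 0.199, 0.189 and 0.190 CPM in CKO lungs and fell (log2 fold change -2.29 ± 0.52 SE, edgeR adjusted p = 0.0357). It did not pass with limma-voom (0.0712) or without any of WT replicate 1 and CKO replicates 2 and 3 (highest adjusted p 0.137), nor between replicates 2 and 3 alone (0.0554). Npy1r had 0.966 ± 0.424 and 0.744 ± 0.278 CPM and did not pass (edgeR adjusted p = 0.640).

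**Figure D4:**
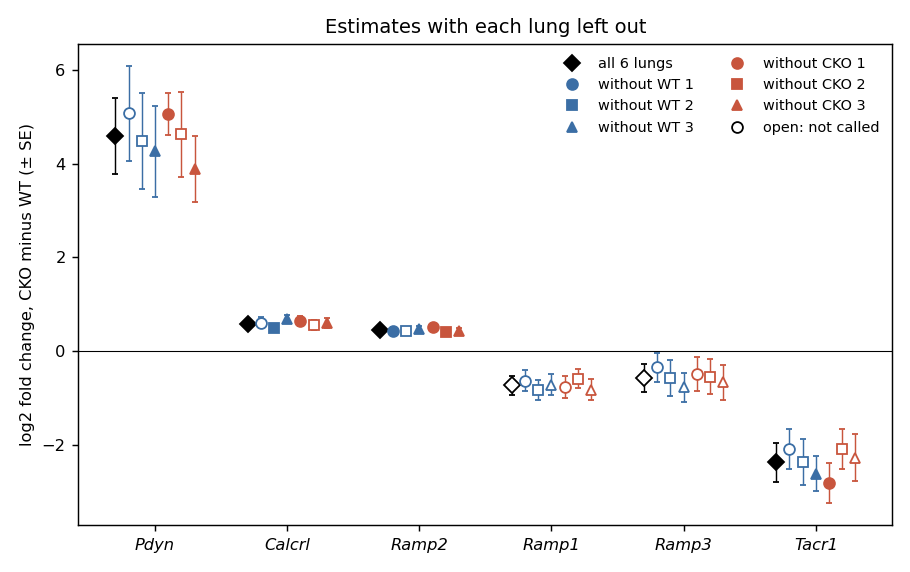
Log2 fold change, CKO minus WT, with bars of ± 1 SE, of the 6 tested genes with all 6 lungs (black diamonds) and with each lung left out in turn (blue for a WT lung, red for a CKO lung, shapes for the replicate number); open symbols were not called. Estimates for Pdyn ran from 3.88 to 5.07 and for Tacr1 from -2.81 to -2.08, and the sign did not change for any of the 6 genes. All but Ramp3 had groups that did not overlap, so leaving out a lung could hardly change their sign.

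Ordered by level per kilobase, WT lungs ran from Ramp2 and Calcrl (14.6 ± 1.94 CPM per kilobase) through Ramp1 to Ramp3 and Tacr1 (0.349 ± 0.130), whose ranges overlapped, and then Vip (0.0659 ± 0.0141). Pdyn followed with a range that overlapped that of Vip, then Npy and Tac1, also with overlapping ranges. Oprk1 had the lowest mean, although Npy was at 0 in 2 of the WT lungs. In CKO lungs Ramp2 (35.6 ± 3.02) and Calcrl (22.0 ± 1.20) again led, but Pdyn (0.750 ± 0.568) came next and overlapped with Ramp1 (0.548 ± 0.0970). By its mean Pdyn was in place 7 of this order in WT and in place 3 in CKO lungs. In CKO replicate 1 it had 0.198 CPM per kilobase, below both Ramp1 (0.585) and Ramp3 (0.271).

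The genes most like the 4 called ones over the 6 lungs, out of 13166 genes compared by Pearson correlation of log2 CPM, are named as a description without a test. For Pdyn these were Plek, Tril (both r = 0.998) and Col8a2 (0.997), and for Calcrl Gprc6a (0.998), Scn3b (0.997) and Clec9a (0.995). Tacr1 was most like Hnrnpl (0.999), Xpot (0.999) and Agfg2 (0.997), and Ramp2 most like Upp1 (0.999), S100a10 and Ak3 (both 0.998). The 6 points are the same libraries for every pair, and the group difference itself is part of each r. The size of the difference could be far from that of its match: Hnrnpl had 575 ± 14.8 CPM in WT lungs and 519 ± 17.1 CPM in CKO lungs.

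Promoter letters are shown for the called genes that have an entry in the RefSeq table (GRCm38.p6). The choice of element follows from the targeted gene, which encodes a TGF-beta receptor. Whether any of these genes responds to the pathway directly was not tested. Each is the 250 bases before the RefSeq start, on the gene's own strand. For Tacr1 and Calcrl this start lies inside the GENCODE span given above, so part of the window does too. Capitals mark CAGAC or its reverse complement GTCTG, the short element that SMAD proteins of the TGF-beta pathway bind. The element was searched on both strands, and 42.2% of all 32851 promoters of this length hold it.
Pdyn promoter, chr2:129699939-129700188, minus strand: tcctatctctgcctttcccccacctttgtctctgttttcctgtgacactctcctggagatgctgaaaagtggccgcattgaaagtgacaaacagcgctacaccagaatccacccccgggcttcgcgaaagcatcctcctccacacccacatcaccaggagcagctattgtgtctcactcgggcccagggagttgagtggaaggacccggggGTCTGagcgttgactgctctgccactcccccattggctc
Tacr1 promoter, chr6:82402225-82402474, plus strand: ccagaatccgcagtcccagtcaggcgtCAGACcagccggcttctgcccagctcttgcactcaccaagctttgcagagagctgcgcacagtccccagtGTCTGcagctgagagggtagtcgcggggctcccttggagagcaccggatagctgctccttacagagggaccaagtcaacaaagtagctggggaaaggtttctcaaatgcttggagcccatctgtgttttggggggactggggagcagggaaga
Calcrl promoter, chr2:84425267-84425516, minus strand: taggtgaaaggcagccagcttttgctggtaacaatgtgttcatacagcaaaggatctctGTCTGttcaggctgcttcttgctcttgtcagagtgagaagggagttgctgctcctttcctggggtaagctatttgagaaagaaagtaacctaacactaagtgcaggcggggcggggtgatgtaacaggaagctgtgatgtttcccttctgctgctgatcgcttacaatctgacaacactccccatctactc

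The element stood once in the Pdyn and Calcrl windows and at 2 places in the Tacr1 window, and nothing on direction is read from so few windows. Another Pdyn start in the table (chr2:129698659-129698908) did not hold it, and of the genes not called it stood once in the Ramp1 and Npy windows and not in those of Ramp3, Tac1 and Vip. A match is a run of letters and not a shown binding site. Oprk1 and Ramp2 had no entry.

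The wider set of peptide genes gives the setting of the 10. Of 126 other genes for neuropeptide precursors, receptors, processing enzymes and vesicle proteins, 71 were tested: 8 rose, 3 fell and 60 did not pass. Of these 71, 15.5% were called, beside the 8.71% of all tested genes, and their median log2 fold change was 0.08. Leaving out 1 lung gave 4 (without WT replicate 2) to 16 calls (without WT replicate 3), with 6 without WT replicate 1 and 6 without CKO replicate 3.

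Outside the families above, 2 precursor genes were called of 12 tested. Ucn2, which encodes urocortin 2, rose, with 0.149 ± 0.0149 CPM in WT lungs and 0.861 ± 0.324 CPM in CKO lungs (log2 fold change 2.51 ± 0.37 SE, edgeR adjusted p = 0.00978). Crh, the gene of corticotropin-releasing hormone, fell from 9.38, 9.62 and 12.8 CPM in WT to 5.01, 7.21 and 3.68 CPM in CKO lungs (log2 fold change -1.01 ± 0.24 SE, edgeR adjusted p = 0.0423). Without WT replicate 2 the adjusted p of Ucn2 was 0.0620, and Crh did not pass without any 1 of the WT lungs or CKO replicate 3 (up to 0.118). Nmb and Pmch, which encode the precursors of neuromedin B and melanin-concentrating hormone, had log2 fold changes of 0.28 ± 0.14 and 0.54 ± 0.27 and did not pass, and both share exon bases with far more highly counted genes, Sec11a and Parpbp.

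Of 13 other neuropeptide receptors tested 0 were called by edgeR, 5 had an unadjusted p under 0.05, and DESeq2 called 1, Ntsr1. Ntsr1, the neurotensin receptor gene, had 4.35, 5.20 and 2.20 CPM in WT lungs and 1.99, 0.783 and 0.902 CPM in CKO lungs (log2 fold change -1.67 ± 0.43 SE, edgeR adjusted p = 0.0516). Its groups did not overlap, and it was called without WT replicate 3 and without CKO replicate 1 (lowest adjusted p 0.00664). Hcrtr2, an orexin receptor gene, had 0.310 ± 0.0214 and 0.0854 ± 0.0541 CPM (edgeR adjusted p = 0.0602), and passed only without CKO replicate 1 (edgeR adjusted p = 0.0405). Nmbr and Kiss1r, receptor genes for neuromedin B and kisspeptin, did not pass (edgeR adjusted p = 0.125 and 0.157), and Kiss1r shares exon bases with R3hdm4.

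Of 19 tested genes that process or degrade peptides, 2 rose, 1 fell and 16 did not pass. Pcsk1, a convertase that cuts prohormones in secretory vesicles, fell from 1.06, 0.876 and 1.41 CPM to 0.149, 0.0540 and 0.0712 CPM, 11.7-fold (log2 fold change -3.55 ± 0.40 SE, edgeR adjusted p = 0.00438). It passed with any 1 lung left out, the highest adjusted p being 0.0300, though CKO lungs held 11 counts in all. Pcsk5 and Ece1, widely made proteases, rose by log2 fold changes of 0.41 ± 0.08 and 0.32 ± 0.06 (edgeR adjusted p = 0.0260 and 0.0189), and neither passed without WT replicate 1 or 2 or CKO replicate 2 or 3 (up to 0.118 and 0.0967). Prep, which encodes a peptidase of the cytosol, had a log2 fold change of -0.18 ± 0.05 (edgeR adjusted p = 0.0515). It was called lower by DESeq2, without the filter and with the second run alone, and in no other setting. Of 9 dense core vesicle genes 0 were called by edgeR, DESeq2 or limma-voom and 1 had an unadjusted p under 0.05. Chga, the chromogranin A gene, had 0.424 ± 0.0422 and 0.218 ± 0.0381 CPM in groups that did not overlap (edgeR adjusted p = 0.0990). Scg3, Ptprn2 and Syt5, further proteins of secretory vesicles, had adjusted p of 0.313, 0.379 and 0.464.

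Markers of cells that make neuropeptides, and of glial and epithelial cells, are given as values beside the peptide genes. Of 6 tested neuroendocrine markers 2 fell, also with any 1 lung left out, and the median log2 fold change was -0.55. Insm1, which encodes a transcription factor, was 1 of these and fell from 0.864 to 1.23 CPM in WT to 0.0810 to 0.149 CPM in CKO lungs (edgeR adjusted p = 0.00320). Neurod1 was at 0 in all lungs. The 9 markers summed to 35.2 to 41.4 CPM in WT and 26.6 to 37.2 CPM in CKO lungs. Most of this sum was Uchl1, which had 7065 counts over all lungs. Of 11 tested neuronal markers Ngfr rose and Ret fell, the latter not without WT replicate 1 or 2 or CKO replicate 2 or 3 (adjusted p up to 0.106 by edgeR); Chat was at 0, and the 14 summed to 27.3 to 36.7 CPM in WT and 48.4 to 54.2 CPM in CKO lungs. Ngfr alone, which mesenchymal cells can also make, was 4.56 to 7.87 CPM in WT and 25.7 to 38.7 CPM in CKO lungs. The higher sum rested on this gene, and the median log2 fold change of the 11 tested was -0.13. Of 7 Schwann and glial cell markers 0 were called by edgeR and 1 had an unadjusted p under 0.05; DESeq2 called 1, Erbb3. The 8 summed to 111 to 135 CPM in WT and 96.4 to 113 CPM in CKO lungs, most of it Erbb3 (108 ± 12.3 and 89.4 ± 7.50 CPM). Of 8 epithelial markers Epcam, Krt18 and Sox9 fell, and 0 did without WT replicate 1 or 2 or CKO replicate 2 or 3. The part of these cells in the peptide gene values was not tested.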

How the data were processed

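RNA of whole lungs was sequenced in 2 runs per lung. Per the submitters' processing notes, reads were trimmed with cutadapt 1.13 and Trimmomatic 0.35, aligned with STAR 2.5.2b to GRCm38 and counted with HTSeq 0.6.1p2, with the GENCODE M8 annotation that the file headers name. The authors deposited raw counts per gene and run. The strand setting of the counting was not given in the sources used. The authors' deposited table of their comparison gives log2 fold changes and p-values from edgeR (3.16.5 in the processing notes); 36 other columns of per-sample values were not used. Shares of reads outside features come from read counts in the deposited alignment table.

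Runs were summed per lung; between runs of a lung chi-square per degree of freedom was 1.42 to 1.50, between lungs of a group 8.46 to 45.6. The 92 spike-ins were left out. Counts were tested with edgeR 4.0.16 in R 4.3.3 (TMM, filterByExpr with minimum count 10, quasi-likelihood test, Benjamini-Hochberg over 17843 genes, adjusted p under 0.05), group being the single factor; the common biological coefficient of variation was 0.127. The SE of a log2 fold change is its absolute value divided by the square root of the quasi-likelihood F statistic. It thus restates that test, for the 10 genes too, and is no separate measure of spread. The procedure was tested on simulated data. Correlations used log2 CPM with a prior count of 2. Positions and exon lengths come from GENCODE M21 (98.9% of genes matched by identifier), coding sequences from its transcripts and promoters from RefSeq.

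The 10 genes, the lists of peptide genes and the marker lists were chosen with earlier results of these data known. Named are the 10 genes, every called gene of the 9 peptide lists, up to 4 tested genes of each list with the smallest p, and for each called gene of the 10 the 3 genes most like it with a mean of at least 1 CPM. Oprm1, Oprd1, Tac2, Tac4, Vps25 and the overlap partners, Pax7 and other marker genes are named beside results. Alternatives were DESeq2 1.42.0, limma-voom (limma 3.58.1), other scaling, no filter, each run alone, a replicate block and each lung left out. Replicates 2 and 3 alone were added after seeing the data. Some genes of the marker lists and some sequences are not reported here.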

Additional observations from a re-analysis of the deposited data

How the results depend on the processing

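Against 1555 genes called with all lungs, DESeq2 called 2438 and replicates 2 and 3 alone, chosen after seeing the data, called 2414; leaving out 1 lung gave 252 to 2898. Of the 10 genes 4 were called, and leaving out 1 lung gave 1 to 4. Of the other peptide genes 11 were called, with 4 to 16. Every other setting run (DESeq2 size factors, total count scaling, limma-voom, no filter, either run alone, replicate block) stayed within 1.5 times of these counts. Of the genes called from the full set of lungs 0 changed sign under the settings run. This is a weak check, since a call picks genes whose groups lie apart. The replicate block called 1780 genes, 4 of the 10 and 11 of the other peptide genes, and Crh did not pass with it (adjusted p = 0.0596) while Ntsr1 did (0.0344). Same-numbered lungs deviated together with correlations of 0.102, 0.0887 and 0.0365, beside -0.108 to 0.0604 for lungs of different numbers. Replicate 1 was female in both groups, so these values cannot settle whether lungs were paired. The numbers are not stated to pair lungs, and the block was run as an alternative. Depth limits Oprk1, Tac1, Vip and Npy, which had 0 to 14 counts per lung. The first run alone left Pdyn and Ramp3 under the filter. The cause of the shifts with single lungs was not tested.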
